A study of Dreissena polymorpha with 12 samples.

Results

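The sequences described here are the expressed sequence tags of the zebra mussel (Dreissena polymorpha, a freshwater bivalve) whose accession begins with AM229 or AM230, measured on an Agilent one-colour oligonucleotide array. A sequence was kept where at least 1 of its probes was called well above background by the scanner software on all 12 arrays. The rule uses no site label, but it does use the signal on every array. It kept 66 sequences, 15 of the 185 AM229 and 51 of the 237 AM230 sequences on the array, which carries 3541 named sequences in all. The same rule kept 1160 other sequences, so that 1226 were tested together. Values are log2 processed signals, averaged over the kept probes of a sequence and quantile normalised between arrays.

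Wild mussels were collected in spring at 5 sites of the Ebro River, which were Flix Reservoir, Flix Factory, Mequinenza, Riba Roja and Faio, and at the Sitjar dam, 200 km from the river. Each site gave 2 replicates, each a pool of RNA from 5 individuals on 1 array, and no treatment was applied. The labels name gills as the tissue, but the protocol for collection describes a portion of each animal, and which tissue the pools held is not settled. Sequences of this array are named by accession only, and tissue markers could not be looked up. In such pooled RNA, fewer cells of a type and less RNA per cell cannot be told apart. Replicates 1 all lay on slide 1 and replicates 2 all on slide 2, and a site kept its array position from slide to slide, so that position and site cannot be told apart. The p-values measure only the spread between these pools and their arrays.

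An expressed sequence tag is a single read from a cDNA clone, a DNA copy of a messenger RNA. A library of such clones made from one tissue or treatment is usually deposited as a run of neighbouring accessions, and several tags of a run can come from the same transcript. A tag therefore marks a transcript that was present in the library, and its accession carries no information on function. None of the 66 accessions is paired with a gene name in the files or found in the RefSeq gene table of the species, so the members are described by accession and no role is given to any of them. The signal of one probe cannot be set against that of another, so no order of levels between members is given.

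Few AM229 and AM230 sequences were measurable throughout the study. The rule kept 8.11% of AM229 and 21.5% of AM230 sequences, against 37.4% of the 3119 others (1165 sequences, 5 of them later lost to spots with outlier flags). The low share did not come with more sequences that were never above background, since 63 of the 422 (14.9%) were above background on no array, against 18.5% of the others. Instead 69.4% of the AM229 and AM230 sequences were above background on at least 1 array but had no single probe above it on all 12, against 44.2% elsewhere. The share kept also changed along the accession run. It was 6.25%, 7.81% and 9.59% in the 3 successive ranges of AM229 numbers and 1.30% (1 of 77, AM230097) in AM230000 to AM230099. From AM230100 onward it was 27.7%, 37.1%, 27.3% and 43.8%. The change thus lay near AM230100 and not at the boundary between the AM229 and AM230 numbers.

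**Figure D1:**
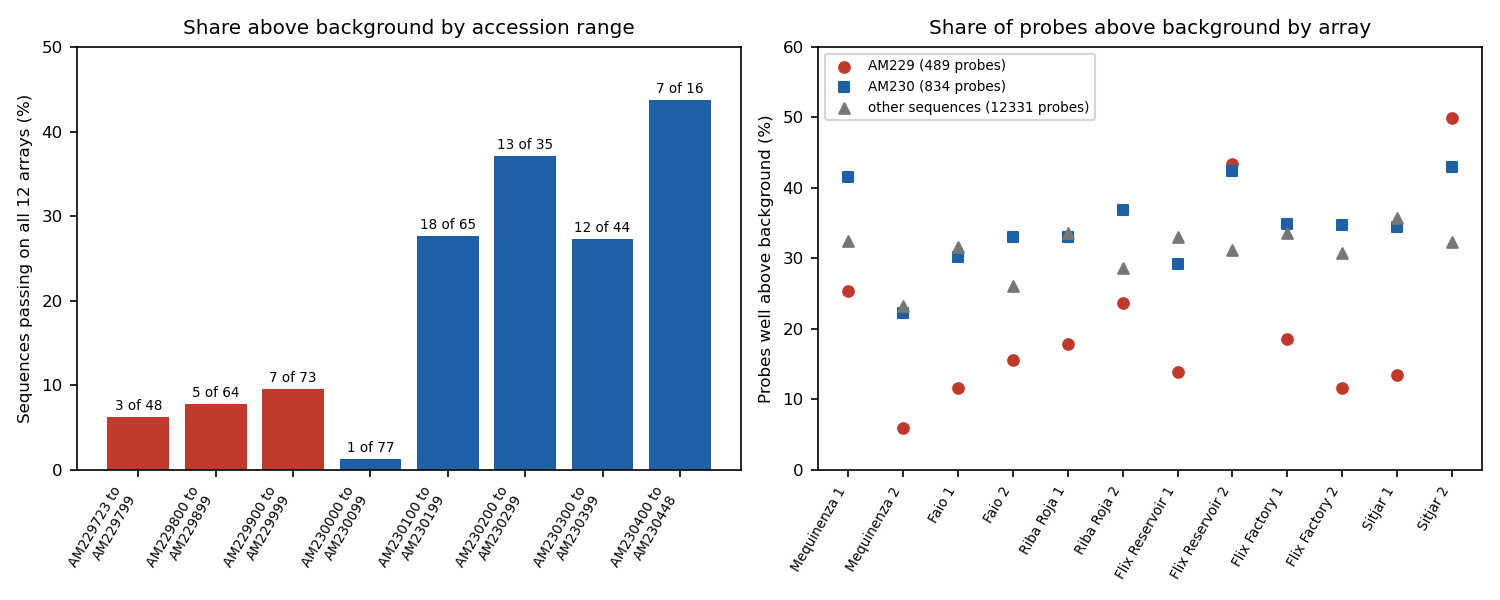
Left, the share of sequences (%) with a probe well above background on all 12 arrays, by range of accession numbers, with the counts above the bars (AM229 red, AM230 blue). Right, the share of probes (%) well above background on each array, for AM229 (489 probes), AM230 (834 probes) and other sequences (12331 probes); the AM229 share was 5.93% for Mequinenza replicate 2 and 49.9% for Sitjar replicate 2.

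The shares of probes above background differed between arrays more for AM229 than for the rest of the array. For AM229 they ran from 5.93% (29 of 489 probes, Mequinenza replicate 2) to 49.9% (244 probes, Sitjar replicate 2). Flix Reservoir replicate 2 was also high, with 43.4%, while the other 9 arrays lay between 11.7% and 25.4%. For AM230 the range was 22.3% to 42.9%, and for other sequences 23.2% to 35.7%. Mequinenza replicate 2 was the lowest array for both of these too. The 2 replicates of a site did not share these levels: Sitjar had 13.5% and 49.9%, Flix Reservoir 13.9% and 43.4%, and Mequinenza 25.4% and 5.93%. For sequences outside the 66, these shares bear on whether an AM229 sequence could be seen at a site at all. On both arrays of 1 site and of no other site, 30 of the 422 sequences (7.11%) were above background, against 112 of the 3119 others (3.59%). Of the 30, 12 were AM229 and 18 AM230 sequences. Sitjar held 11 of the 30 (2.61% of the 422) and 49 of the 112 (1.57% of the 3119). Faio held 7 (1.66%) and 10 (0.32%), and Flix Factory 1 (0.24%) and 27 (0.87%).

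Among the 66 members, most had modest differences between sites. The median SD of the 6 site means was 0.31 on the log2 scale, against 0.25 over the other sequences, with 0.46 for the AM229 and 0.28 for the AM230 members. Among the other accession series with at least 50 sequences that passed the filter it ran from 0.22 (EY433) to 0.31 (AJ517). Over the 255 other sequences with a mean log2 signal under 9 it was 0.33. It was 0.47 over the 14 AM229 and 0.40 over the 16 AM230 members under 9. The spread that remained within sites after removing the slide was larger in the members too, with a median residual SD of 0.37 against 0.23. Without removing the slide it was 0.40 against 0.38. Mequinenza held the highest site mean of 18 members, Flix Factory of 16, Faio of 13, Riba Roja of 10, Sitjar of 6 and Flix Reservoir of 3. Sitjar was thus the highest site for 9.09% of members and for 30.0% of the other sequences. It was the lowest site for 20 members (30.3%, against 23.2%). These counts order single means of 2 arrays and carry no test.

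**Figure D2:**
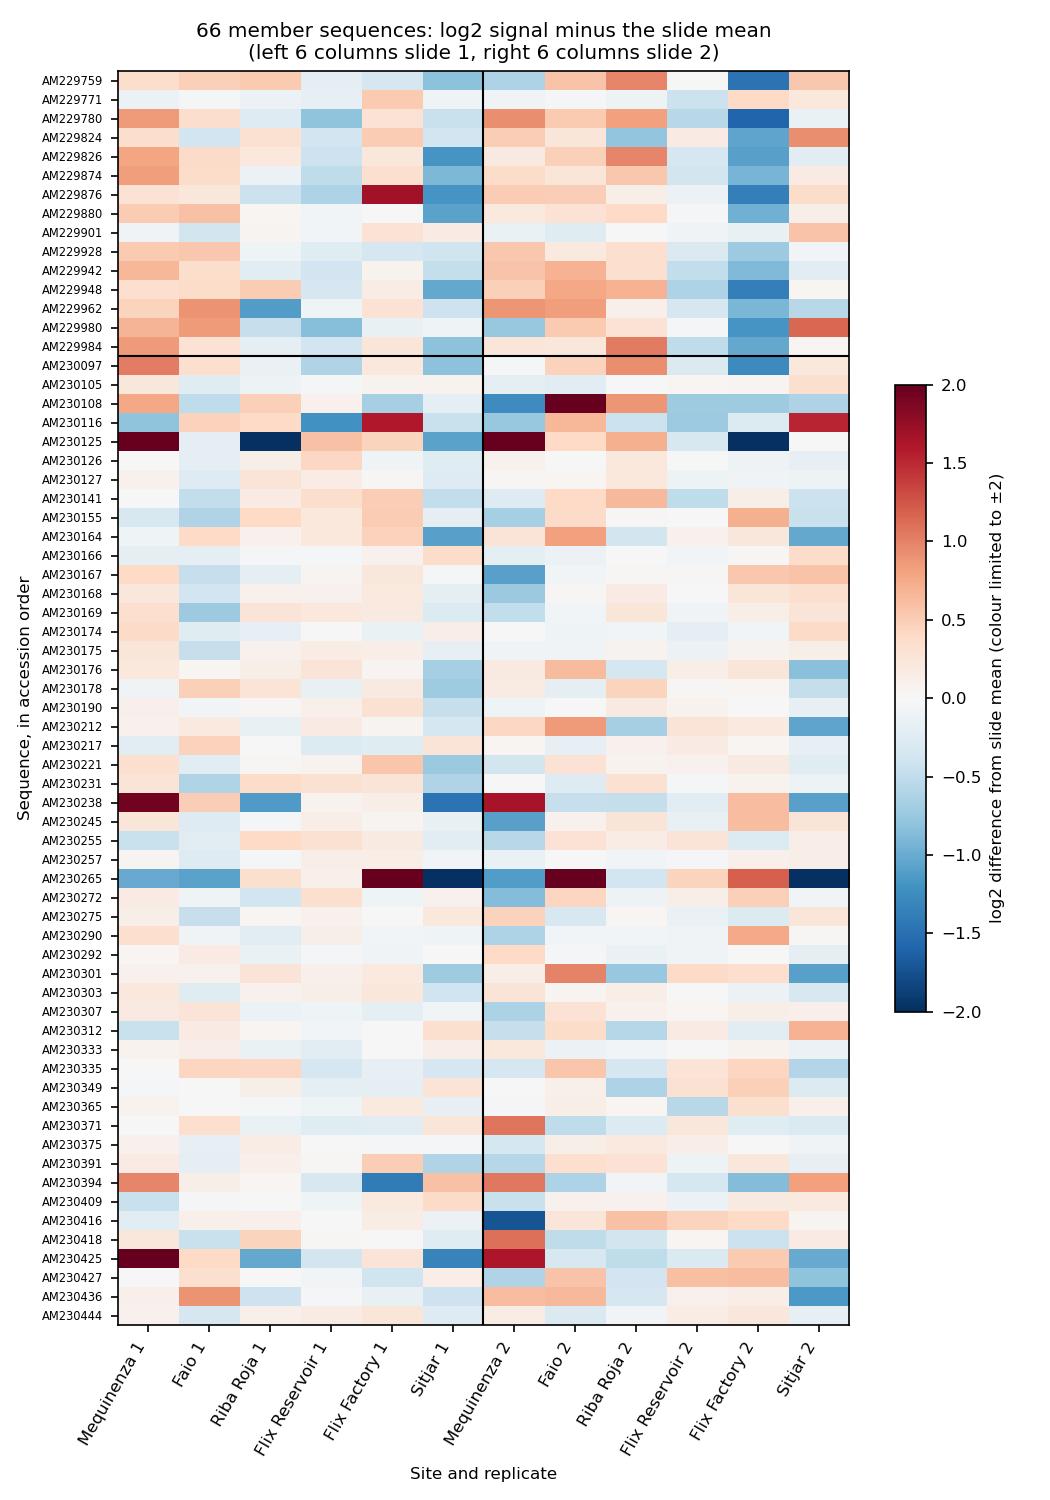
Each row is 1 of the 66 members in accession order, each column 1 array, and the colour is the log2 signal minus the mean of that sequence over the 6 arrays of the slide (colour limited to a difference of 2 either way). The black lines separate slide 1 from slide 2 and AM229 from AM230; AM230425 and AM230238 are high on both Mequinenza arrays, and most AM229 members are low on the second Flix Factory array.

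The members with the largest spread between sites were AM230265, AM230125, AM230238, AM230425 and AM230394, with SDs of the site means of 1.79, 1.25, 1.06, 1.06 and 0.77. Those with the smallest were AM230257, AM230333, AM230217, AM230375 and AM230292, with SDs of 0.09 to 0.13, and their highest and lowest site means were 1.18 to 1.27-fold apart. All 10 are AM230 sequences. With the slide as a block, limma's moderated F test over the 6 sites passed an adjusted p of 0.05 (Benjamini-Hochberg over the 1226 sequences) for 4 members, and the background was 5.95% of all sequences tested. They were AM230425 (adjusted p = 0.0164), AM230238 (0.0208), AM230394 (0.0227) and AM230164 (0.0397). Without the block limma called no member and 0 of the 1226 sequences, and 6 members had an unadjusted p under 0.05, against 9.79% of all sequences. AM230265, with the largest spread of all members, passed in neither fit, since its replicates also lay far apart.

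AM230425 followed a pattern with Mequinenza highest and Sitjar lowest. Its log2 signal, for replicates 1 and 2 in turn, was 15.41 and 15.03 at Mequinenza, 13.74 and 13.09 at Faio, 12.32 and 12.90 at Riba Roja, 12.97 and 13.13 at Flix Reservoir, 13.60 and 13.94 at Flix Factory, and 12.004 and 12.40 at Sitjar. Both Mequinenza arrays stood above all 10 others, and the Sitjar and Riba Roja arrays overlapped at the low end. The highest and lowest site means were 8.10-fold apart. In the order of site means Mequinenza was followed by Flix Factory, Faio, Flix Reservoir, Riba Roja and Sitjar. The arrays of neighbouring sites overlapped in this order for Flix Factory and Faio, for Faio and Flix Reservoir, and for Riba Roja and Sitjar.

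AM230238 had nearly the same profile. Its log2 signal was 13.70 and 13.02 at Mequinenza, 12.27 and 10.91 at Faio, 10.64 and 10.90 at Riba Roja, 11.85 and 11.14 at Flix Reservoir, 11.92 and 11.997 at Flix Factory, and 10.30 and 10.28 at Sitjar. Again both Mequinenza arrays were above all others and both Sitjar arrays below all others. After removal of the slide mean, AM230238 and AM230425 had a Pearson r of 0.99 and a Spearman rho of 0.98 over the 12 arrays, and an r of 0.97 over the 10 arrays without Mequinenza. This was the highest correlation among the 66 members, and it is given as a description, since the points share libraries and slides. Whether the tags come from 1 transcript was not tested, because probe sequences were not used here.

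**Figure D3:**
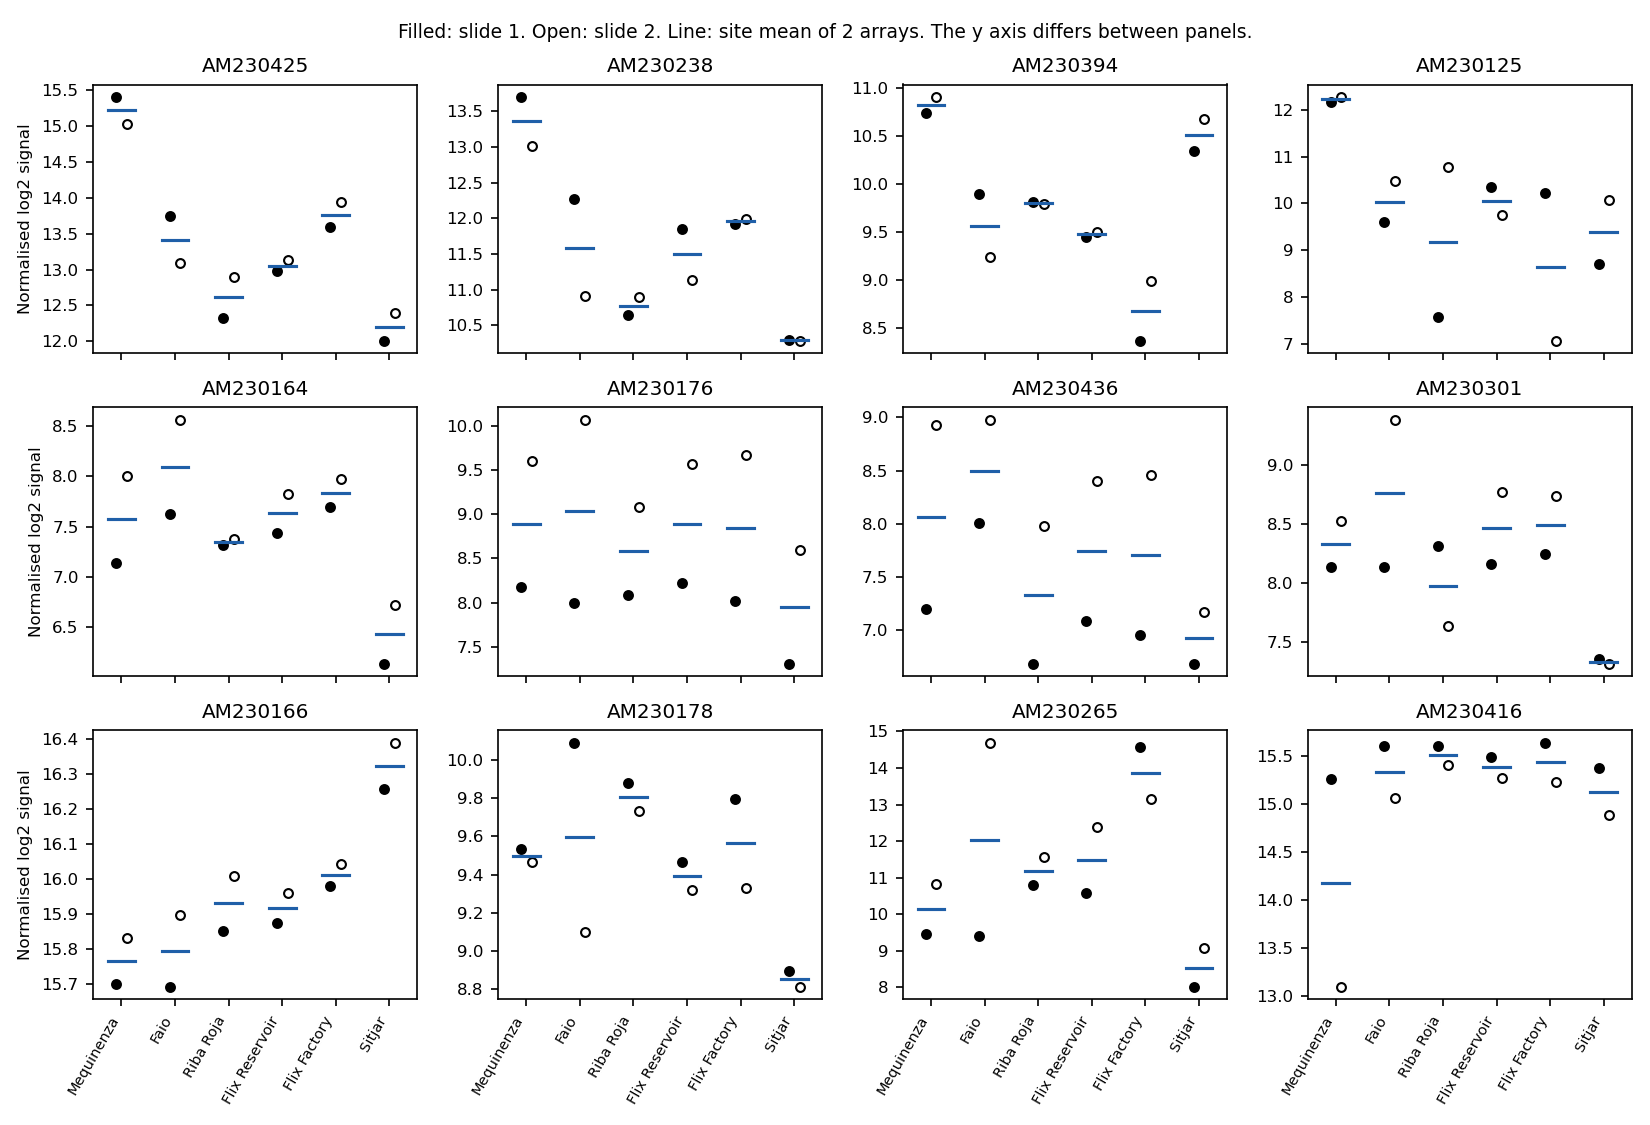
Normalised log2 signal of 12 members at the 6 sites, with filled circles for slide 1, open circles for slide 2 and a line at the mean of the 2 arrays of a site. The y axis differs between panels; in AM230425, AM230238 and AM230394 both Mequinenza arrays are above all other Ebro arrays, while in AM230176 and AM230436 the slides are apart at every site.

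Mequinenza was then set against the other 4 Ebro sites, which asks which sequences set it apart within the river. AM230425 was 4.02-fold higher there, AM230238 3.76-fold and AM230394 2.72-fold, and these 3 rose past the threshold with the slide as a block. No member fell past it. The log2 difference of AM230425 was 2.01 (SE 0.25, limma adjusted p = 0.0238) without the block and had an adjusted p of 0.0127 with it. Without the block AM230425 was the only member called, and 0.163% of all 1226 sequences were. With the block 3 members were called, against 3.43% of all sequences (1.47% higher and 1.96% lower). Unadjusted p were under 0.05 for 11 members without the block and 13 with it, against 11.1% and 23% of all sequences. AM230238 differed by 1.91 (SE 0.29, adjusted p = 0.0153 with the block and 0.0739 without). AM230394 differed by 1.45 (SE 0.22, adjusted p = 0.0151 with the block and 0.0588 without). Each of the 3 was higher at Mequinenza on both slides, with differences of 2.25 and 1.77 for AM230425, 2.04 and 1.78 for AM230238, and 1.36 and 1.53 for AM230394. Their separate probes had the same direction, with ranges of 1.76 to 2.54 over 4 probes, 1.51 to 2.18 over 5 and 1.30 to 1.62 over 2.

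Both Mequinenza arrays lay outside the range of the 8 other Ebro arrays for 8 members, 6 above and 2 below, and for 9.14% of all sequences tested (4.16% above and 4.98% below). Over both directions together the share of members, like that of the block's calls, was near this background. In both, higher members held a larger share than the background and lower members a smaller one. These counts are small, and the difference in direction was not tested. Beside the 3 called sequences, AM230125, AM230174 and AM230275 lay above and AM230255 and AM230409 below. AM230125 had the largest difference of all members, 2.75 on the log2 scale or 6.74-fold (SE 0.95). Its signal was 12.17 and 12.28 at Mequinenza, and at the other 4 sites it ran from 7.05 to 10.77, with 7.57 and 10.77 at Riba Roja and 10.22 and 7.05 at Flix Factory. The replicates within those sites were up to 3 log2 units apart, and the difference did not pass the test (limma adjusted p = 0.314, and 0.145 with the block). Of the members that were lower, AM230265 differed by -1.99 and AM230416 by -1.23, neither past the test (adjusted p = 0.259 and 0.0952 with the block). The AM230416 value rests on Mequinenza replicate 2, at 13.10 against 15.26 for replicate 1 and a range of 15.07 to 15.64 at the other Ebro sites. It also rests on 1 of its 3 probes, which differed by -3.02 where the others differed by -0.21 and -0.68. AM230255 differed by -0.64, AM230155 by -0.69 and AM230116 by -0.84, with blocked adjusted p of 0.117, 0.158 and 0.403. Over all 66 members the median difference was 0.01, against 0.02 over the other sequences.

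The 3 calls depended on Mequinenza replicate 2. Without that array none of them was called, although the differences were as large, at 2.28 for AM230425, 2.08 for AM230238 and 1.39 for AM230394 in the blocked fit. Without Mequinenza replicate 1, 10 members were called, 4 higher and 6 lower, without Faio replicate 1 there were 5 and without Flix Reservoir replicate 2 there was 1. Without the block, AM230425 was called in 3 of the 12 fits that leave out an array (without Mequinenza replicate 1, Faio replicate 1 or Faio replicate 2), with adjusted p of 0.0217 to 0.187 and differences of 1.82 to 2.20.

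The 5 river sites together were compared with Sitjar, a population outside the river. AM230425 was 2.66-fold higher in the Ebro and was the only member called without the block (log2 difference 1.41, SE 0.24, limma adjusted p = 0.0416), where 1.14% of all sequences were called. Its mean was 15.22 at Mequinenza, 13.21 over the other 4 Ebro sites and 12.20 at Sitjar, and the Ebro and Sitjar arrays overlapped. For AM230238 these means were 13.36, 11.45 and 10.29. An unadjusted p under 0.05 was found for 10 members (15% of all sequences) without the block and 18 with it (29.7%). With the slide as a block 9 members were called, against 15.5% of all sequences. Of the 9, 7 were higher in the Ebro (7.18% of all sequences were) and 2 lower (8.32%). The higher ones were AM230238 (2.92-fold), AM230425 (2.66-fold), AM230164 (2.40-fold), AM230301 (2.10-fold), AM230436 (1.92-fold), AM230176 (1.87-fold) and AM230178 (1.64-fold). The lower ones were AM230394 (1.79-fold) and AM230166 (1.36-fold).

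**Figure D4:**
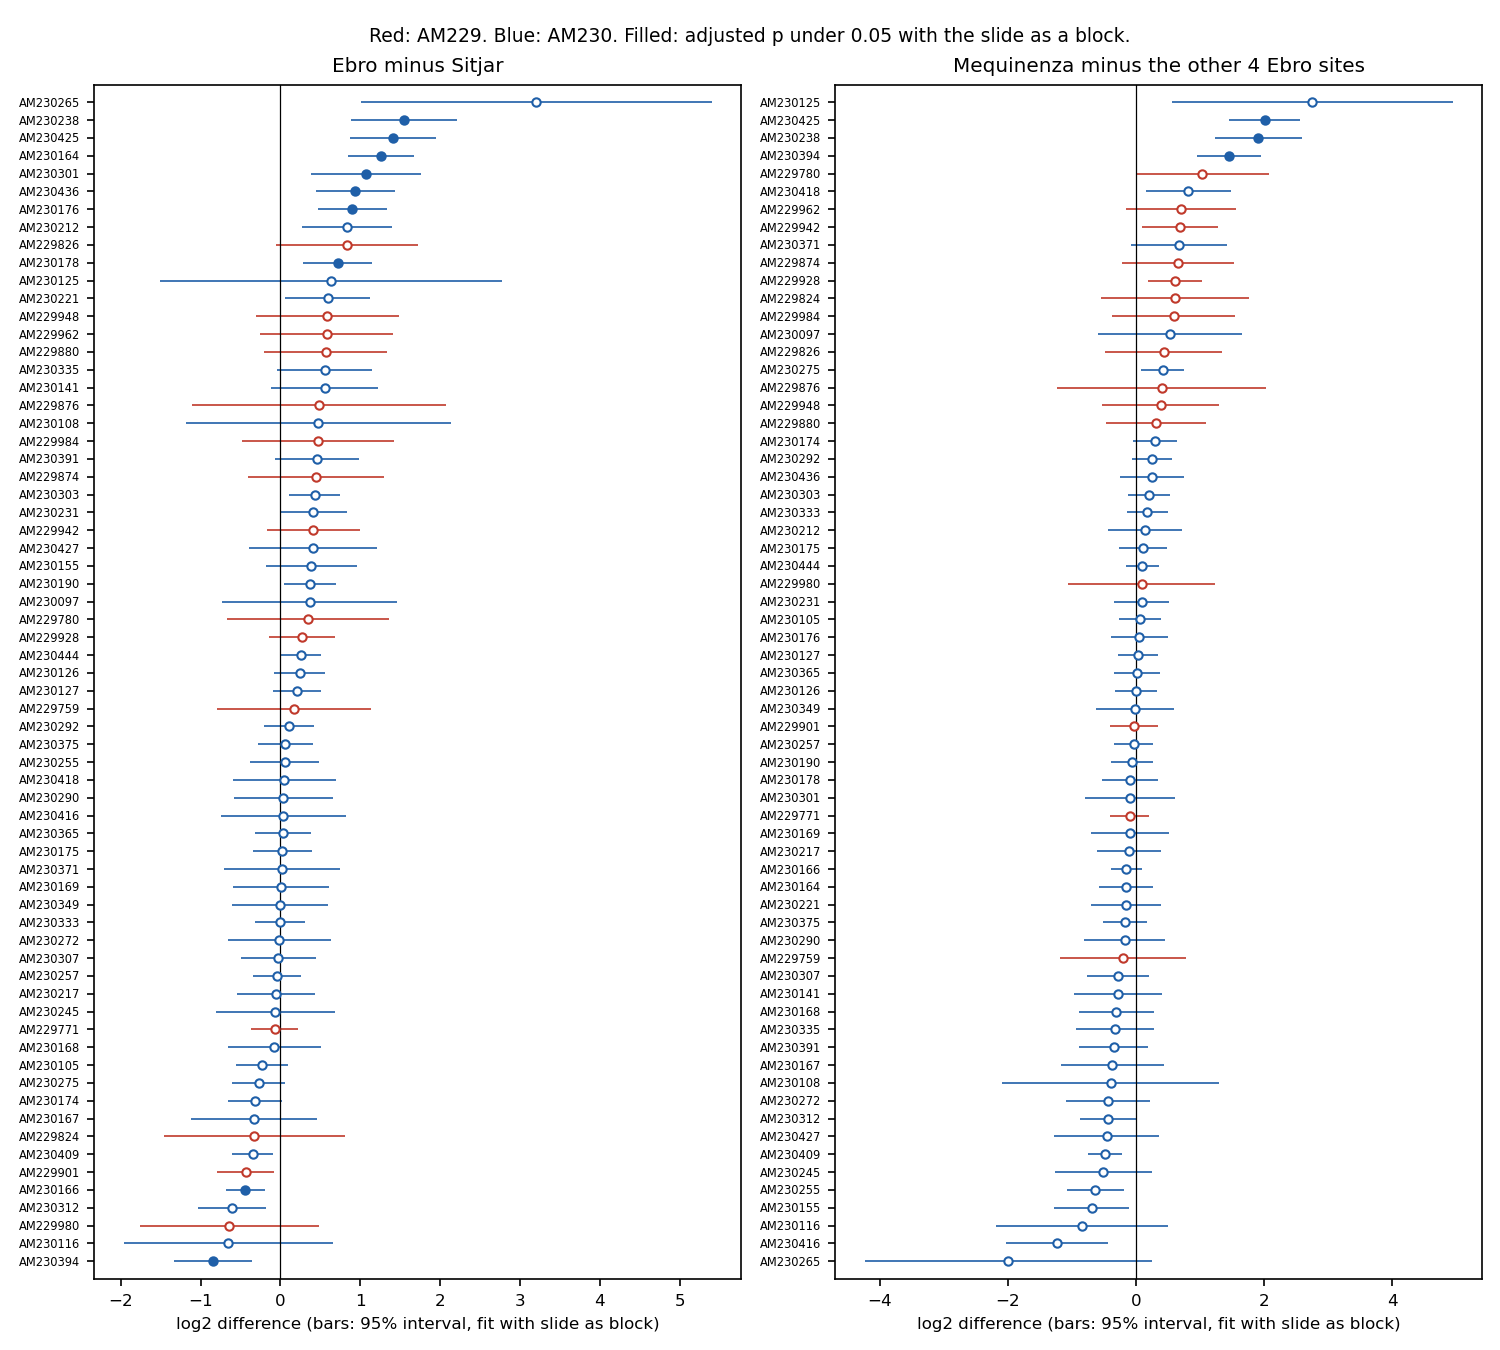
Log2 difference of each of the 66 members, ordered by size, for the Ebro minus Sitjar (left) and Mequinenza minus the other 4 Ebro sites (right), with 95% intervals from the limma fit with the slide as a block. Red is AM229, blue is AM230, and filled circles have an adjusted p under 0.05; 9 members are filled on the left and 3 on the right, all of them AM230.

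AM230164 had the smallest adjusted p of the blocked fit among the members (0.00707; 0.109 without the block). Its signal was 6.14 and 6.73 on the Sitjar arrays, and on the 10 Ebro arrays it had a lowest value of 7.14, a median of 7.66 and a highest of 8.56. Sitjar lay below every Ebro array, and the difference was 1.30 on slide 1 and 1.22 on slide 2, with a log2 difference of 1.26 ± 0.42 (95% interval). AM230238 also did not overlap, with 10.30 and 10.28 at Sitjar and 10.64 to 13.70 (median 11.88) in the Ebro, and differed by 1.54 (adjusted p = 0.0141 with the block, 0.0991 without). AM230301 was at 7.36 and 7.32 in Sitjar and between 7.64 and 9.39 (median 8.28) in the Ebro, with no overlap and a difference of 1.07 (adjusted p = 0.0480 with the block, 0.189 without). AM230178 was at 8.90 and 8.81 in Sitjar and between 9.10 and 10.09 (median 9.499) in the Ebro, again without overlap, and differed by 0.72 (adjusted p = 0.0378 with the block, 0.213 without). Only 1 of its 4 probes was in use, and with no background filter its difference was -0.13.

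For AM230176 and AM230436 the call came with the removal of the slide. AM230176 was at 7.30 and 8.60 in Sitjar, while the Ebro arrays lay between 7.9985 and 8.22 on slide 1 and between 9.08 and 10.07 on slide 2. The ranges overlapped over all arrays, but on each slide Sitjar was below every Ebro array, and the Ebro mean minus Sitjar was 0.80 on slide 1 and 1.01 on slide 2 (adjusted p = 0.641 without the block and 0.0198 with it). AM230436 was at 6.69 and 7.18 in Sitjar and differed by 0.50 on slide 1 and 1.37 on slide 2 (adjusted p = 0.562 and 0.0242). On slide 1 its Sitjar value did not stand apart, since Riba Roja replicate 1 was also at 6.69. AM230176 and AM230301 followed each other over the 12 arrays once the slide mean was removed (Pearson r 0.96, Spearman rho 0.71).

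Both members that fell past the threshold in the Ebro, AM230166 and AM230394, kept their sign on both slides. AM230166 was at 16.26 and 16.39 in Sitjar and between 15.69 and 16.04 (median 15.89) in the Ebro, with no overlap, and differed by -0.44 on both slides (adjusted p = 0.0282 with the block, 0.189 without). AM230394 differed by -0.84 (adjusted p = 0.0343 with the block, 0.141 without). Its signal was 10.35 and 10.67 in Sitjar, 10.74 and 10.91 at Mequinenza, 9.89 and 9.23 at Faio, 9.81 and 9.79 at Riba Roja, 9.44 and 9.502 at Flix Reservoir, and 8.36 and 8.99 at Flix Factory. Mequinenza thus lay above Sitjar, and the other 8 Ebro arrays below it. AM230312 was lower without overlap too (8.84 and 9.15 in Sitjar, 7.89 to 8.83 in the Ebro) and missed the threshold (difference -0.61, blocked adjusted p = 0.0619).

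AM230265 had the largest difference between the Ebro and Sitjar, 3.20 on the log2 scale or 9.21-fold (SE 1.17), and did not pass the test (adjusted p = 0.232, and 0.0571 with the block). Its signal was 8.01 and 9.06 at Sitjar, 9.47 and 10.83 at Mequinenza, 9.39 and 14.69 at Faio, 10.79 and 11.57 at Riba Roja, 10.57 and 12.39 at Flix Reservoir, and 14.57 and 13.14 at Flix Factory. Every Ebro array was above both Sitjar arrays, and the Faio replicates alone were 5 log2 units apart. All 4 of its probes were in use. AM229980 (-0.64) and AM230116 (-0.65) had the other large negative differences, with opposite signs on the slides and blocked adjusted p of 0.421 and 0.486.

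In all, the Ebro and Sitjar arrays did not overlap for 7 members, 5 higher and 2 lower in the Ebro. The background was 11.8% of all sequences (4.98% higher and 6.85% lower). Over both directions together, neither the non-overlapping share nor the share called with the block exceeded the background. In both, higher members held a larger share than the background and lower members a smaller one. Only the direction of the members as a group was uneven. The median log2 difference was 0.23, with 46 of 66 members (69.7%) higher in the Ebro, against a median of -0.03 and 47.2% over the other sequences. The median difference was 0.31 on slide 1 and 0.06 on slide 2, and 35 of the 66 (53.0%) had the same sign on both, against 71.6% of the other sequences. The median was 0.41 for the 15 AM229 members (11 higher) and 0.06 for the 51 AM230 members (35 higher). For AM229 it changed sign between slides, with 0.58 on slide 1 and -0.15 on slide 2, and 6 of the 15 kept their sign. For AM230 it was 0.24 and 0.12, and 29 of the 51 kept their sign. The 5 other accession series with at least 50 sequences that passed the filter had medians between -0.05 and 0.04. With no background filter the direction turned, to a median of -0.06 over the 422 AM229 and AM230 sequences (187 higher) against 0.05 over the others.

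The calls against Sitjar depended on which arrays were in the fit. Without Sitjar replicate 1 the blocked fit called 1 member and without Sitjar replicate 2 it called 0 (with 5, 4 and 5 without Flix Reservoir replicate 1, Flix Reservoir replicate 2 and Flix Factory replicate 1). AM230164, AM230176, AM230238, AM230425 and AM230436 were each called in 10 of the 12 blocked fits that leave out an array. The first 4 of these were lost without either Sitjar array, and AM230436 without Sitjar replicate 2 or Flix Reservoir replicate 2. AM230394 was called in 5 of the 12 fits, and AM230166, AM230178 and AM230301 in 4 each. These 4 members were lost without either Sitjar array, either Flix Reservoir array or Flix Factory replicate 1. Beyond that, AM230166, AM230178 and AM230394 were lost without either Riba Roja array, AM230301 without either Mequinenza array, and AM230166, AM230178 and AM230301 without Flix Factory replicate 2. Without the block, the call of AM230425 remained in 1 of the 12 fits that leave out an array (without Faio replicate 2), with differences of 1.21 to 1.61 and adjusted p of 0.0484 to 0.313.

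No member was called at the other 4 Ebro sites, each against the rest of the river, in either limma fit. At Faio 3 members had an unadjusted p under 0.05 without the block and 7 with it, against 6.61% and 17.6% of all sequences, and 0.979% of all sequences were called with the block (0 without). AM230444, AM230231 and AM230418 were lower on both Faio arrays than on every other Ebro array. AM230444 was at 10.01 and 9.81 and differed by -0.45 (SE 0.11, blocked adjusted p = 0.114, the smallest at Faio). AM230231 was at 10.21 and 10.43 and differed by -0.62 (0.158). AM230307 and AM230312 lay above all other Ebro arrays, so that 5 members did not overlap, against 5.06% of all sequences (2.2% above and 2.85% below). Of the larger positive differences, AM229980 (1.00), AM229962 (0.96) and AM230436 (0.78) were higher at Faio on both slides, with blocked adjusted p of 0.348, 0.254 and 0.136. AM230108 (1.08) had opposite signs on the slides.

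At Riba Roja the same pair that was high at Mequinenza gave the lowest values of the river. AM230425 differed by -1.25 (SE 0.24, blocked adjusted p = 0.320) and AM230238 by -1.33 (SE 0.29, 0.453), and for both every Riba Roja array was below the 8 other Ebro arrays. These were the only 2 members without overlap, against 1.96% of all sequences. The sites set against Riba Roja include Mequinenza, where both members were highest, and the 2 comparisons share their Ebro arrays. The results are therefore not independent. Unadjusted p were under 0.05 for 2 members without the block and 5 with it, against 2.12% and 7.34% of all sequences, and limma called 0 of the 1226 sequences. AM230125 differed by -1.06, but by -3.01 on slide 1 and 0.89 on slide 2.

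At Flix Reservoir no member stood outside the other Ebro arrays (0.734% of all sequences did), limma called 0 of the 1226 sequences in either fit, and 1 member without the block and 4 with it had an unadjusted p under 0.05, against 1.88% and 6.61% of all sequences. AM230425 again had the smallest adjusted p with the block (0.583), with a difference of -0.70. The sites set against it include Mequinenza, with a site mean of 15.22. Its site mean was 13.05 at Flix Reservoir, and 13.42, 12.61 and 13.77 at Faio, Riba Roja and Flix Factory. The larger negative values were AM230116 (-1.07), AM229780 (-0.92), AM229948 (-0.72) and AM229984 (-0.66), each negative on both slides, and no positive difference exceeded 0.34 (AM230255).

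At Flix Factory 3 members did not overlap with the other Ebro arrays, against 3.43% of all sequences (1.47% above and 1.96% below). AM230394 was lower, at 8.36 and 8.99 (difference -1.24, SE 0.22, blocked adjusted p = 0.110). AM229928 was lower, at 7.78 and 7.51 against 7.87 to 8.78 (difference -0.72, 0.196). AM230155 was higher, at 9.36 and 9.62 (difference 0.69, 0.408). No sequence of the 1226 was called in either fit, with 4 members at an unadjusted p under 0.05 without the block and 8 with it (4.32% and 11.3% of all sequences). AM230265 differed by 2.65 (6.27-fold), by 4.52 on slide 1 and 0.78 on slide 2 (0.408), and AM230125 by -1.74, with opposite signs on the slides.

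The AM229 members moved together over the arrays. After removal of the slide mean, the median Pearson r over all their pairs was 0.57 on the 12 arrays, against 0.07 within AM230 and -0.00 among the other sequences, and 36.2% of the AM229 pairs were over 0.7 (5.25% and 4.29%). It was 0.62 without the Mequinenza and 0.46 without the Flix Factory arrays. Against the mean of the other AM229 members, 8 of the 15 had an r over 0.8, and so did 1 AM230 member, AM230097 (r 0.95), and 4 of the 1160 other sequences. AM230097 is the one member numbered between AM230000 and AM230099, and its closest partner was AM229984 (r 0.96). The members numbered next below and next above it are AM229984 and AM230105. AM229771 (r -0.11) and AM229901 (r -0.05), with 2 and 4 probes in use, did not share the profile. These correlations describe 12 arrays that share 2 slides, and the members may include tags of 1 transcript.

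The shared profile was high at Mequinenza and Faio and low at Flix Reservoir on both slides. The median deviation of the 15 from their slide mean was 0.51 and 0.36 at Mequinenza, 0.36 and 0.47 at Faio, and -0.39 and -0.34 at Flix Reservoir, for slides 1 and 2. At the other 3 sites the slides disagreed, with -0.11 and 0.34 at Riba Roja, 0.24 and -1.03 at Flix Factory, and -0.48 and 0.12 at Sitjar. At Flix Reservoir 0 of the 15 were above their slide mean on slide 1 and 2 on slide 2, and at Flix Factory 12 were above on slide 1 and 1 on slide 2. The filter bears on this profile, since it asked for signal above background on Mequinenza replicate 2 as well. On that array 29 of the 489 AM229 probes were above background, and 20 were so on all 12 arrays. The 15 members were thus in part chosen by their signal on that array. How far this sets the profile was not tested.

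**Figure D5:**
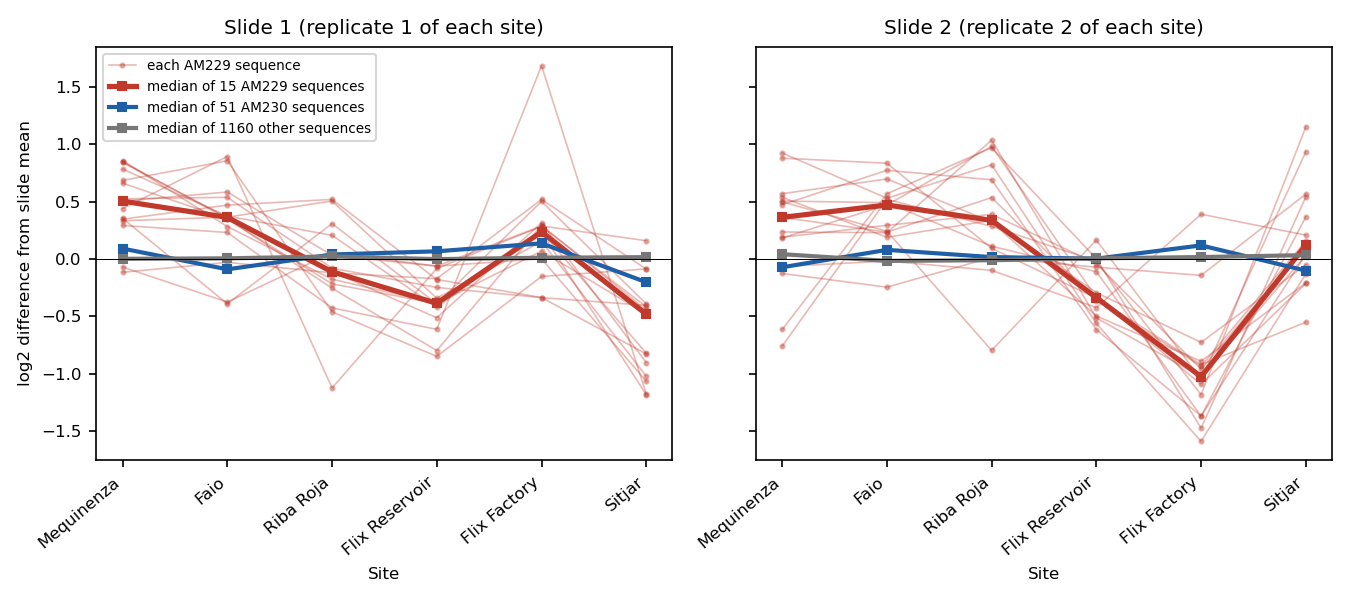
Log2 signal minus the slide mean of each sequence at the 6 sites, on slide 1 (left) and slide 2 (right), with 1 thin red line per AM229 member and thick lines for the medians of 15 AM229, 51 AM230 and 1160 other sequences. The AM229 median is low at Flix Reservoir on both slides, and its largest disagreement is at Flix Factory, 0.24 on slide 1 and -1.03 on slide 2.

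The difference between Mequinenza, Faio and Riba Roja together and the Flix sites, chosen after the values were seen and given without a test, was 0.74 as a median over the 15 AM229 members, 0.42 on slide 1 and 1.04 on slide 2. It was positive for 13 of the 15, and on both slides for 11, where 33% of all sequences were positive on both. Over AM230 the median was -0.05, and over the others -0.03. A mean log2 signal under 9 was found for 14 of the 15 AM229 members. Over the 255 other sequences with a mean under 9 the median difference was -0.08, and over the 16 AM230 members under 9 it was -0.05. Single AM229 members gave 1.20 (AM229780), 1.07 (AM229948), 0.90 (AM229826), 0.87 (AM229759), 0.83 (AM229984), 0.82 (AM229942), 0.74 (AM229874, AM229928 and AM229980), 0.60 (AM229880 and AM229962), 0.30 (AM229876) and 0.23 (AM229824). AM230097 was at 0.91.

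No AM229 member passed limma's test in any site comparison. AM229780 illustrates the spread. It was at 8.03 and 8.54 at Mequinenza, 7.53 and 8.15 at Faio, 6.93 and 8.44 at Riba Roja, 6.38 and 7.05 at Flix Reservoir, 7.48 and 6.03 at Flix Factory, and 6.74 and 7.49 at Sitjar. The Flix Factory replicates were farther apart than any of its site means from the next. AM229928 varied less, with 8.64, 8.78, 8.66, 8.43, 8.04 and 8.58 on the arrays of the first 3 sites and 7.87, 7.95, 7.78 and 7.51 on those of the Flix sites, without overlap between these sets.

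Most of the AM229 profile rests on single probes. Of the 15 members, 12 had 1 probe in use, and their 18 other probes (of 10 sequences) were above background on a median of 3 arrays and 3 of them on none. The median over these 12 was 0.78, and each of them was positive. The other 3 members were AM229771 (2 probes, -0.15), AM229901 (4 probes, -0.13) and AM229980 (2 probes, 0.74). When the background filter was relaxed to both arrays of at least 1 site, 67 AM229 sequences gave a median of 0.46. That filter admits a sequence through a site where it is high, so its entry and its difference are not independent. With no filter all 185 gave a median of -0.00, so the profile was not seen over the whole of AM229. On slide 2 the share of AM229 probes above background was 5.93% at Mequinenza, where the members were high. Faio and Riba Roja had shares of 15.5% and 23.7%, and positive median deviations too (0.47 and 0.34). Sitjar had the highest share, 49.9%, and a median deviation of 0.12. Of the Flix sites, where the members were low, the Reservoir had a share of 43.4%. The Factory, with the lowest median deviation (-1.03), had a share of 11.7%. On slide 1 the share and the profile had the same order over 5 sites, with 25.4% at Mequinenza, 18.6% at Flix Factory, 17.8% at Riba Roja, 13.9% at Flix Reservoir and 13.5% at Sitjar, while Faio, where the members were high, had 11.7%. The part of this share in the profile was not tested.

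The probes of a member could be set against each other in 45 of the 66. For the Ebro minus Sitjar all probes had the same sign in 32 of these, with a median range over probes of 0.29. The widest ranges were those of AM230307 (-0.69 to 0.63 over 5 probes), AM230164 (0.53 to 1.80 over 3), AM230425 (0.66 to 1.81 over 4), AM229980 (-1.07 to -0.10 over 2) and AM230238 (1.23 to 2.05 over 5). AM230307 was the one of these whose probes had opposite signs, and for Mequinenza its probes differed by 3.66. Its values at Faio and Mequinenza therefore depend on the probe.

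The slide was tested in the same way. Replicate 2 differed from replicate 1 for 14 members (11 higher and 3 lower on slide 2, limma with the site as a factor), 21.2% of the 66, against 42.7% of all sequences (25.2% higher and 17.5% lower). AM230349 had the largest difference, 1.65 (SE 0.19, adjusted p = 0.000474), with 5.94 to 6.40 on slide 1 and 7.17 to 8.25 on slide 2. AM230265 differed by 1.48 (adjusted p = 0.126) and AM230176 by 1.47 (0.000188). The largest negative differences were those of AM230416 (-0.67), AM230108 (-0.54) and AM229771 (-0.48), of which AM229771 passed the test (0.00526). The residual spread after removing the slide was also larger in the members, as given above, and whether that sets the lower share was not tested.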

How the data were processed

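RNA from pools of 5 mussels (500 ng total RNA per pool) was labelled with Cy3 and hybridised to one-colour arrays, per the labels' protocols. Per the file headers, Agilent Feature Extraction 10.5.1.1 gave the deposited intensity values, whereas version 9.5 is named in the submitters' processing notes. The processed signal used here is linear, with background subtraction and detrending done by that software inside each array and, per the file headers, no scaling from array to array. Flags for spots above background, saturated (0 spots) and outlier were deposited with it, coded 0 or 1. A value table on the log2 scale was also deposited by the authors. Its columns had medians of 2.93 to 3.26, and correlations of 0.985 to 1.00 and slopes of 0.933 to 1.20 with the log2 processed signal, which settles the scale and the direction, while its centring and normalisation are not given in the sources used here. That table served only as an alternative, and 212 of the array's non-control spots were not in it.

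Of 15744 spots, 536 controls were left out, and the remaining spots held 13654 probes. Outlier-flagged spots were left out (3 of 181 member probes and 5 sequences were lost this way) and copies of a probe averaged. A probe with copies counted as above background where more than 0.5 of them were. The mean per sequence used 178 member probes and was quantile normalised over all 1226 sequences. The linear model of limma 3.58.1 in R 4.3.3 had 6 site means and used all 12 arrays, without a block and with the slide as a block. Adjusted p are limma's with Benjamini-Hochberg adjustment over 1226 sequences, and the threshold was 0.05. Differences are means of site means. The members, the lists and the rule for named members were chosen with earlier results of these data known. The rule took, per comparison, up to 10 called members per fit and the 5 largest differences in each direction, called or not, with 5 and 5 for levels and for variation, 3 and 3 for the slide and 5 for disagreement between probes. Those for levels are not given, since levels of different probes cannot be compared, and some of the smaller differences at the river sites are given as counts only.

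Deviations from the site mean were correlated between same-numbered arrays in each of the 15 combinations of sites (r 0.46 to 0.75, median 0.64, limit 0.1), and principal component 1 (40.0% of the variance) set slide 1 apart from slide 2. On this ground, and because the number is the slide, the arrays were treated as paired. The number of arrays limits the precision; the median half-width of the 95% interval of a member's Ebro minus Sitjar difference was 0.57 with the block. The alternatives were other scalings, normexp (offset 50), the authors' values, other background filters, the brightest probe, limma-trend, array weights and leaving out each array. For normexp the median spot signal stood in for the mean signal, which was not used here. The code was tested on simulated data.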

Additional observations from a re-analysis of the deposited data

How the results depend on the processing

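Without the block, the count of members called for the Ebro against Sitjar was 1, and 0 with scaling to the median of the other sequences, with normexp or with no background filter, 2 with the brightest probe, 9 with the replicate block and 0 to 2 with an array left out. At Mequinenza the count was 1, and 0 with 75th percentile scaling, the median of the other sequences, no filter, the brightest probe or array weights, 4 with the filter on both arrays of a site, 3 with the replicate block and 0 to 3 with an array left out. For the F test over sites it was 0, and 4 with the replicate block. In the blocked fit, the 9 members called for the Ebro against Sitjar became 15 with the median of the other sequences, 0 with no filter and 0 to 11 with an array left out (5 without Flix Reservoir replicate 1 or Flix Factory replicate 1). Of the 9, 7 were higher and 2 lower, as against 12 and 0 with 75th percentile scaling, 10 and 1 with the authors' values and 9 and 1 with the brightest probe. The 3 at Mequinenza became 8 with the filter on both arrays of a site, 0 with no filter or with array weights and 0 to 10 with an array left out (5 without Faio replicate 1). Array weights gave 2 calls at Flix Factory in place of 0. The blocked F test called 4, and 2 with 75th percentile scaling or the brightest probe, 0 with no filter and 0 to 7 with an array left out. The slide difference called 14, and 24, 28, 40 and 25 with 75th percentile scaling, the median of the other sequences, the filter on both arrays of a site and no filter. At the other river sites the pairing changed no call. The 75th percentile moved the median of all sequences for the Ebro minus Sitjar from -0.02 to 0.09; the members' median was 0.19 to 0.38 above that of the others under every scaling with the same 66 members, and 0.11 below it (-0.11) with no filter, over 422 sequences. Over 308 alternative values for called members, 199 kept the call and direction, 108 kept the direction only and 1 reversed: AM230178 for the Ebro minus Sitjar was -0.13 with no filter and the block. For AM229, the median of 0.74 for Mequinenza, Faio and Riba Roja minus the Flix sites was 0.50 (normexp) to 0.92 under other scalings and 0.55 to 1.01 with an array left out. These last alternatives, and those that leave out an array in the blocked fit for single members, were chosen after seeing the data. The filter on both arrays of a site admits a sequence through a site where it is high, so its counts and differences are not independent. Where an alternative changed a count, the cause was not tested.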
